A study of Mus musculus with 8 samples.

Results

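Long intergenic non-coding RNA (lincRNA) genes were followed in metaphase II (MII) oocytes, the mature ovulated eggs of the mouse, with and without the splicing regulator ESRP1. The genes were chosen by annotation and level, as those typed lincRNA in GENCODE M21 and averaging at least 1 FPKM (fragments relative to exon length and library total) across the 8 libraries. These were 359 genes, out of 8021 genes at that level and 24860 genes listed. The files list 2034 lincRNA genes in all, and 1675 of them lay below that level, 1217 of these below 0.1 FPKM. The level that chose them was the mean over both genotypes, so it did not use the contrast, but a gene high in 1 genotype alone can pass through that genotype.

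The first group, called Esrp1_KO here, held 4 libraries of oocytes from C57BL/6 females labelled Esrp1-/-, and the other, called WT, held 4 libraries from wild-type C57BL/6 females. All females were 42 days old. Per library, 15 oocytes were lysed together for Smart-seq2, which copies polyadenylated RNA into full-length cDNA without marking the strand. The design describes biological replicates, but no label says whether the tubes came from different animals, so the p-values reflect differences among tubes, which may be technical. The labels do not give which exons the knockout allele lacks or whether ESRP1 is also missing from the other cells of the animal.

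LincRNAs are spliced, polyadenylated transcripts of genes that lie between protein-coding genes and have no recognised reading frame. Mouse oocytes hold many that are little seen in other tissues, and a large number of these start in long terminal repeats of retrotransposons. The egg at this stage no longer transcribes, so its RNA is what was stored during growth and what maturation left of it. ESRP1 binds GU-rich words in RNA, such as GGTGG in the DNA alphabet, and is best known for controlling exon choice in epithelial cells.

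The transcripts of the genes with the largest fall and the largest rise are shown first, from the GENCODE M21 transcripts on GRCm38, 5′ to 3′. Gm45659 (ENSMUSG00000109993) lies on the minus strand of chromosome 8, bases 43908656 to 43914604, and its only annotated transcript has 3 exons and 564 bases. Gm47552 (ENSMUSG00000112705) lies on the minus strand of chromosome 12, bases 54316164 to 54317015, with 2 exons and a transcript of 384 bases. The first 300 bases of each are printed, and capitals mark GGTGG, which each holds 1 time.
Gm45659 transcript, bases 1 to 300: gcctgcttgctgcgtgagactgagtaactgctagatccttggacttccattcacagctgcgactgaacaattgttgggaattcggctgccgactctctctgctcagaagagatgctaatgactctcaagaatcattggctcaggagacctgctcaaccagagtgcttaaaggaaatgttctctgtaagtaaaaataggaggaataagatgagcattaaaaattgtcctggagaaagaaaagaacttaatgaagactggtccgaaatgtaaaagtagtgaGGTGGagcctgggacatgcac
Gm47552 transcript, bases 1 to 300: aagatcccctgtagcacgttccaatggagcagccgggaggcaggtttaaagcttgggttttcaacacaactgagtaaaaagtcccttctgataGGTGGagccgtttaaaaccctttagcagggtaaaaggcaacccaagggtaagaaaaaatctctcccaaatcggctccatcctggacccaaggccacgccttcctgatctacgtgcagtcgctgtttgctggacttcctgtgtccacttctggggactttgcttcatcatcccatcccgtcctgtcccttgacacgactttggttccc

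Promoter windows from RefSeq (GRCm38.p6, 250 bases before to 50 bases after the start) are shown for the most abundant lincRNA genes with a matching window, Gm1965 and C86187, and for Gm17751, an abundant gene that rose. They are followed by 9330175E14Rik, which was nearly absent from Esrp1_KO, and by Gm17399 and Mkln1os, which share a start region with a protein-coding gene on the other strand. Capitals mark, on either strand, the TATA word TATAAA, the E-box CACGTG, the homeobox words TAATTA and TAATTG, the GC box GGGCGG and the CCAAT box.
Gm1965 promoter, chr6:89140744-89141043, plus strand: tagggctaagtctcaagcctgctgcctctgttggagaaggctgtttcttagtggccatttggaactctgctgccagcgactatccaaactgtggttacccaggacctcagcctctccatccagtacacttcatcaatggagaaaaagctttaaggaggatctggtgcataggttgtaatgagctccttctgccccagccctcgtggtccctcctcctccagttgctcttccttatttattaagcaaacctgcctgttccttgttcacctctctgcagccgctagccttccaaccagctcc
C86187 promoter, chr7:46975862-46976161, minus strand: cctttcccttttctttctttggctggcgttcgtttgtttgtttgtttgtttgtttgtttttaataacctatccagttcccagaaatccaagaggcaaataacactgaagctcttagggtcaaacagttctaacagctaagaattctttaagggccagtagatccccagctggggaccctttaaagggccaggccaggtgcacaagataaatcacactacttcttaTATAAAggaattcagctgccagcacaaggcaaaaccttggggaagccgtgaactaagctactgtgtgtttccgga
Gm17751 promoter, chr1:76488883-76489182, plus strand: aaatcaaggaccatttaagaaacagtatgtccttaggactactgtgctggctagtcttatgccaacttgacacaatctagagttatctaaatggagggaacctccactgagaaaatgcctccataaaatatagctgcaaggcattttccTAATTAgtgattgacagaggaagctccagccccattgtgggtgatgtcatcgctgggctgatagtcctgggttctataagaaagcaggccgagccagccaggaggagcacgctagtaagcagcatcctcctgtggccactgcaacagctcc
9330175E14Rik promoter, chr8:94435054-94435353, minus strand: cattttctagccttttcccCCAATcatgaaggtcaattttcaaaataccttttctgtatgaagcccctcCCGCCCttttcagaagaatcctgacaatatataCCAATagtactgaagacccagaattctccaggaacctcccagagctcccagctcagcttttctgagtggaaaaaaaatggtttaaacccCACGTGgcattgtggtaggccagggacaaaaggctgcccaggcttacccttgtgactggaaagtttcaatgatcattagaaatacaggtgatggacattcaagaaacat
Gm17399 promoter, chr9:118149981-118150280, plus strand: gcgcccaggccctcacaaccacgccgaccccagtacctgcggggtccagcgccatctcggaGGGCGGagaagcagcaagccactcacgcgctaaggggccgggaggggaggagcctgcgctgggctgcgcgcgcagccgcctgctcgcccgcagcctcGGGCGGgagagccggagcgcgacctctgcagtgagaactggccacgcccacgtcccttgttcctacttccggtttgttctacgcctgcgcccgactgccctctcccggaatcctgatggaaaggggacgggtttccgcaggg
Mkln1os promoter, chr6:31398724-31399023, minus strand: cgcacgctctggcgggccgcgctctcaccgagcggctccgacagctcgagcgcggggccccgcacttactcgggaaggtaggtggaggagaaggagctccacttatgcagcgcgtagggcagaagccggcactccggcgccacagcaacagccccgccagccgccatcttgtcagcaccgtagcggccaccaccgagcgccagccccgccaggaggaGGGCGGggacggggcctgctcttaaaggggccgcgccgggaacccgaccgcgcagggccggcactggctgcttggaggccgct

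The 6 windows differ in these letters. C86187 holds TATAAA near its start, Gm17751 holds TAATTA, and 9330175E14Rik holds the E-box, a GC box and CCAAT boxes. The windows of Gm17399 and Mkln1os hold GGGCGG, and that of Gm1965 holds none of the 6 motifs.

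The labels were checked first. Esrp1 had 3.62, 3.43, 2.31 and 3.83 FPKM in Esrp1_KO libraries 1 to 4, against 17.1, 17.2, 19.5 and 16.2 FPKM in WT libraries 1 to 4. All 12 oocyte markers were expressed, and summed to 10413 to 12607 FPKM in Esrp1_KO and 9105 to 10353 FPKM in WT. Of the 12, 6 (50%) were higher and 2 (16.7%) lower in Esrp1_KO at an adjusted p of 0.05 in limma. Over all genes tested, 13.9% were higher and 23.1% lower. Dazl averaged 336 FPKM in Esrp1_KO and 859 FPKM in WT, and Mos 108 and 204 FPKM. Npm2, Ooep, Zar1, Zp1, Zp2 and Zp3 were the higher ones. Of 12 granulosa and cumulus markers 9 were listed, 5 of them below a mean of 0.1 FPKM. The list summed to 4.001 to 5.16 FPKM in Esrp1_KO and 9.21 to 12.2 FPKM in WT. The lower sum lay in Cyp19a1 (mean 1.87 FPKM in Esrp1_KO, 6.10 FPKM in WT), Kitl (1.83 and 3.27) and Nr5a2 (0.736 and 1.18). Has2, Inhba, Tnfaip6, Ptx3, Foxl2 and Fshr averaged at most 0.129 FPKM in each group and were not lower in Esrp1_KO. Of 8 leukocyte markers 5 were below 0.1 FPKM, and the list summed to 1.93 to 11.4 FPKM in Esrp1_KO, with the highest value in replicate 3, and 1.201 to 2.25 FPKM in WT. Red cell markers summed to at most 0.449 FPKM in any library. Fewer such cells and less RNA in each cannot be told apart. Whether these RNAs came from such cells at all, and their part in the results below, was not tested. Read totals worked out from the deposited values were 24910433 to 32337966 in Esrp1_KO and 25018183 to 28932109 in WT.

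Expressed lincRNA genes made up a small part of the egg's RNA and differed between the genotypes in both directions. Of the 359 genes, 159 (44.3%) passed an adjusted p of 0.05 in limma, and 36.9% of all genes tested did. In Esrp1_KO, 42 lincRNA genes (11.7%) were higher, where 13.9% of all genes tested were, and 117 (32.6%) were lower, where 23.1% of all genes tested were. The median log2 fold change, on the log2(FPKM + 1) scale used throughout, was −0.32 over the lincRNA genes, −0.06 over all genes tested and −0.05 over the 6925 protein-coding genes. The median over all genes moved by 0.12 to 0.06 with TMM scaling of the libraries. With that scaling the lower genes were 64.0% of the lincRNA genes that passed, against 73.6% without it, and 47.3% of all genes that passed, against 62.5% without it. With quantile normalization they were 64.3% of the lincRNA genes and 51.1% of all genes that passed. Levels per library are relative, so fewer molecules of one RNA and more of the rest cannot be told apart.

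The groups did not overlap at all for 134 lincRNA genes (37.3%), 33 with every Esrp1_KO library above every WT library and 101 with every Esrp1_KO library below. Over all genes tested this share was 36.8%, with 13.5% higher and 23.3% lower. Changes of at least 1 on the log2 scale were seen among those that passed for 21 lincRNA genes upward, where 3.68% of all genes tested did so, and for 56 downward, where 7.34% of all genes tested did. Of the 50 largest falls among all genes tested 5 were lincRNA genes, and of the 50 largest rises 1 was, where lincRNA genes are 4.48% of the genes tested.

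**Figure D1:**
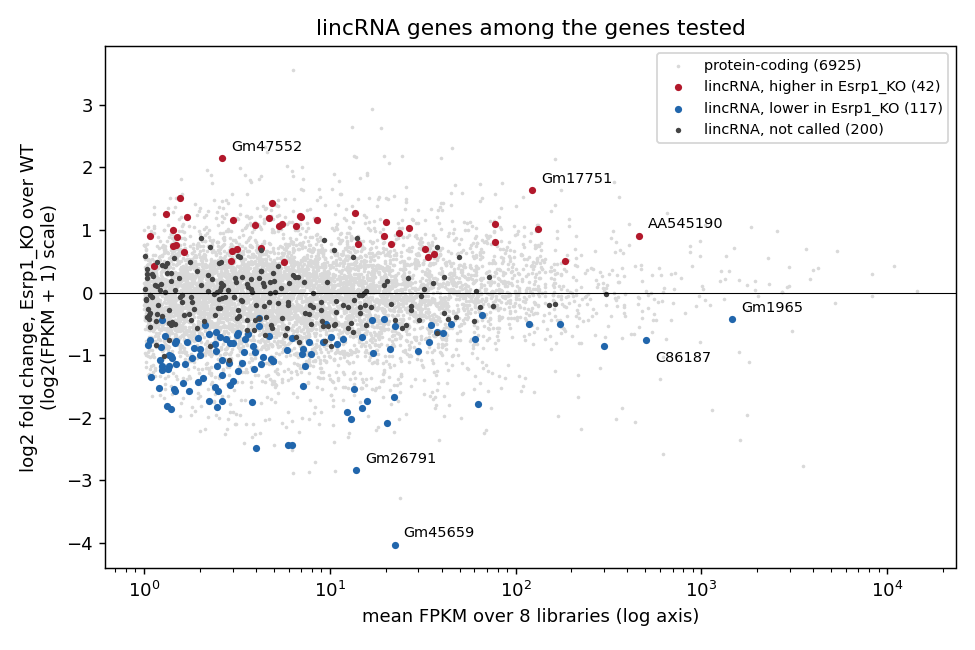
Log2 fold change of each gene, Esrp1_KO over WT, against its mean level in FPKM over 8 libraries on a log axis. Grey points are the 6925 protein-coding genes, and coloured points the 359 lincRNA genes, of which 42 were higher, 117 lower and 200 not called. Gm45659, at −4.02, is the lowest point of all.

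**Figure D2:**
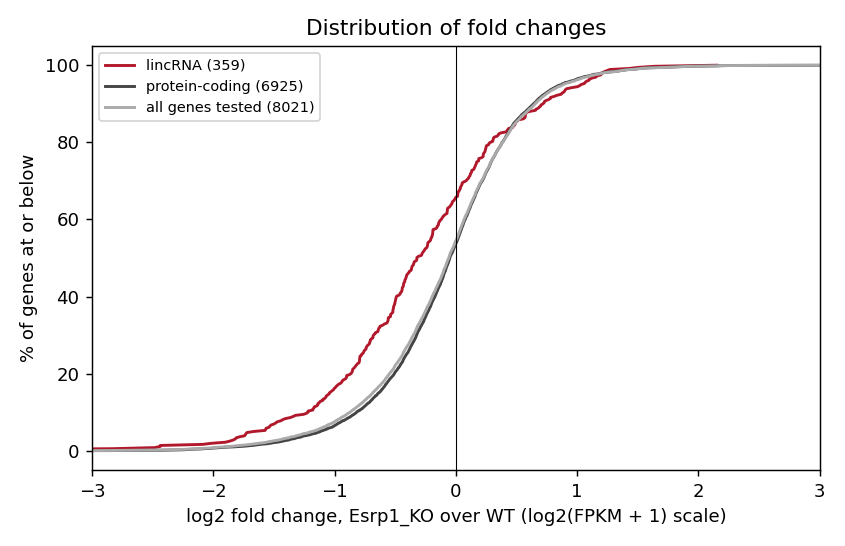
Share of genes at or below each log2 fold change (Esrp1_KO over WT) for the 359 lincRNA genes, the 6925 protein-coding genes and all 8021 genes tested, drawn between −3 and 3. The lincRNA curve lies to the left over most of its course, with a median of −0.32, against −0.05 for protein-coding genes.

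Some of the genes passed the level limit through 1 genotype alone. A mean of at least 1 FPKM in both genotypes was found for 283 lincRNA genes. Of these 32 were higher and 80 lower, or 39.6% called, with a median of −0.23. The share of all genes called under this stricter limit was not worked out. The 36.9% of all genes tested is for the looser limit, so whether lincRNA genes exceed it here is not known. Another 55 reached it in WT alone, 37 of them called lower, and 21 in Esrp1_KO alone, 10 of them called higher. The genes next to the limit show its width. Just above it were Gm3669, Gm13391 and Gm2516, with 0.937, 1.45 and 0.999 FPKM on average in Esrp1_KO and 1.11, 0.578 and 1.02 FPKM in WT. Just below it were Gm36355, with 0.440 to 1.38 FPKM in Esrp1_KO and 0.313 to 1.78 FPKM in WT, and Gm47548, with 0.0831 to 1.19 FPKM in Esrp1_KO and 0.408 to 3.87 FPKM in WT. Gm37267 had 0.817 to 1.65 FPKM in Esrp1_KO and 0.235 to 0.914 FPKM in WT. All 50-base stretches of Gm3669 recur in other genes, so its level is uncertain.

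Most of the lincRNA genes were low. Their median level was 3.94 FPKM, against 6.09 FPKM for protein-coding genes, and 210 lay below 5 FPKM. An FPKM of 1 on 1 kb of exon stood for 24.9 to 32.3 reads, and the mean of the recovered reads ranged from 8.5 to 99691 per library over the 348 genes whose values came out as whole reads. The median coefficient of variation between libraries was 30.8% in Esrp1_KO and 26.9% in WT, and for protein-coding genes 20.6% in Esrp1_KO and 15.8% in WT. Split by level, the called share was 42.9% of 98 lincRNA genes at 1 to 2 FPKM, 44.6% of 112 at 2 to 5, 38.9% of 90 at 5 to 20 and 54.2% of 59 at 20 FPKM or more. For protein-coding genes at the same levels it was 32.5%, 36.3%, 38.6% and 37.8%. The split includes the lincRNA genes that reached 1 FPKM in 1 genotype alone, of which 37 were called lower and 10 higher. The level limit left only that direction open to them. How many protein-coding genes passed in this way was not worked out, so the shares cannot be compared free of it.

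Together the 359 genes held 2.11%, 2.09%, 2.06% and 2.14% of the summed FPKM in Esrp1_KO libraries 1 to 4, against 2.46%, 2.51%, 2.28% and 2.37% in WT libraries 1 to 4. The groups did not overlap, with 2.10 ± 0.031% in Esrp1_KO and 2.41 ± 0.10% in WT (SD, n = 4 each). Without Gm1965, the most abundant of them, the shares were 1.67 to 1.80% in Esrp1_KO and 1.83 to 1.97% in WT. Mitochondrial genes took 1.03 to 1.77% of the sum in Esrp1_KO and 4.99 to 5.39% in WT. Set against nuclear genes only, the lincRNA share was 2.10 to 2.16% in Esrp1_KO and 2.41 to 2.65% in WT. Between 279 and 310 of the genes reached 1 FPKM in a single Esrp1_KO library, and between 319 and 333 in a single WT library. These counts include the 55 genes that passed the level limit through WT alone and the 21 that passed through Esrp1_KO alone. Such counts over all genes tested were not worked out.

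The lincRNA pool of the egg was dominated by few genes. The 10 most abundant held 48.4 to 55.5% of the lincRNA FPKM in Esrp1_KO and 51.2 to 53.5% in WT. Of these 10 genes 3 rose, 4 fell and 3 did not pass the test, and 6 of the 10 lie on chromosome 6. None of the 10 has a function known well enough to be stated here.

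Gm1965 (ENSMUSG00000090254, chromosome 6, 89140994 to 89147388, plus strand, 3 exon blocks) was the highest, with 1389, 981, 1295 and 1355 FPKM in Esrp1_KO libraries 1 to 4, against 1746, 1801, 1503 and 1630 FPKM in WT libraries 1 to 4. Every Esrp1_KO library lay below every WT library. Its log2 fold change came to −0.42 ± 0.13 (SE, adjusted p = 0.0331, limma). It missed the threshold without Esrp1_KO replicate 3 (adjusted p = 0.0541) and without WT replicate 1, 2 or 4 (0.0888, 0.0845 and 0.0671), with TMM scaling (0.177), with quantile normalization (0.104), with all listed genes tested (0.112), with voom on recovered reads (0.120), in replicates 1 and 4 alone (0.0939) and in replicates 2 and 3 alone (0.104).

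Gm839, on the minus strand of the same stretch of chromosome 6, had 266, 141, 218 and 237 FPKM in Esrp1_KO libraries, against 384, 400, 351 and 385 FPKM in WT libraries. The groups lay apart, with a log2 fold change of −0.85 ± 0.18 (SE, adjusted p = 0.00537, limma). The abundant gene 4933427D06Rik, also there, had 137, 161, 134 and 131 FPKM in Esrp1_KO libraries, against 180, 147, 149 and 172 FPKM in WT libraries. Its groups overlapped and it did not pass (−0.20 ± 0.12, adjusted p = 0.230). These 3 genes span 266 kb, from 88950683 to 89216237.

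C86187 (chromosome 7, 46967711 to 46975911, minus strand) fell, with 463, 316, 359 and 362 FPKM in Esrp1_KO libraries, against 658, 644, 618 and 597 FPKM in WT libraries. All WT values lay above all Esrp1_KO values, and the log2 difference came to −0.76 ± 0.13 (SE, adjusted p = 0.00159, limma). Exons of Gm31941 overlap 14.5% of its exon bases, and reads of the pair cannot be told apart. AU016765, on chromosome 17, had 125, 177, 154 and 123 FPKM in Esrp1_KO libraries, against 185, 181, 249 and 201 FPKM in WT libraries. It passed at an adjusted p of 0.0334 (limma, −0.50 ± 0.16), but not without Esrp1_KO replicate 1 or 4 or WT replicate 3 or 4 (0.0692 to 0.0920), nor with TMM scaling (0.119), with all listed genes tested (0.0845), with voom (0.0658) or in replicates 2 and 3 alone (0.251).

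The abundant genes that rose were AA545190, D6Ertd474e and Gm6712. AA545190 (chromosome 6, 10971560 to 10979638, minus strand) had 420, 798, 716 and 499 FPKM in Esrp1_KO libraries, against 303, 343, 332 and 277 FPKM in WT libraries. The groups lay apart, and replicates 2 and 3 were higher than replicates 1 and 4 in both. It rose by 0.91 ± 0.20 on the log2 scale (SE, adjusted p = 0.00603, limma).

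D6Ertd474e was the steadiest of them, with 211, 213, 225 and 220 FPKM in Esrp1_KO libraries, against 158, 166, 137 and 150 FPKM in WT libraries. It rose by 0.51 ± 0.11 (SE, adjusted p = 0.00451, limma), but did not pass in replicates 2 and 3 alone (0.0730). Gm6712 had 137, 191, 236 and 138 FPKM in Esrp1_KO libraries, against 77.5, 136, 90.2 and 51.6 FPKM in WT libraries, and its lowest Esrp1_KO value lay just above its highest WT value. Its log2 fold change of 1.02 ± 0.28 (SE, adjusted p = 0.0187, limma) no longer passed without Esrp1_KO replicate 3 (0.0523) or with all listed genes tested (0.0677). Of its 50-base stretches, 19.1% recur in other genes.

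Gm1070 and Gm47066 did not pass. Gm1070 averaged 306 FPKM in Esrp1_KO and 304 FPKM in WT, and the sign of its small difference turned with the scaling. Gm47066 had 147, 187, 152 and 122 FPKM in Esrp1_KO libraries, against 169, 173, 154 and 192 FPKM in WT libraries.

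**Figure D3:**
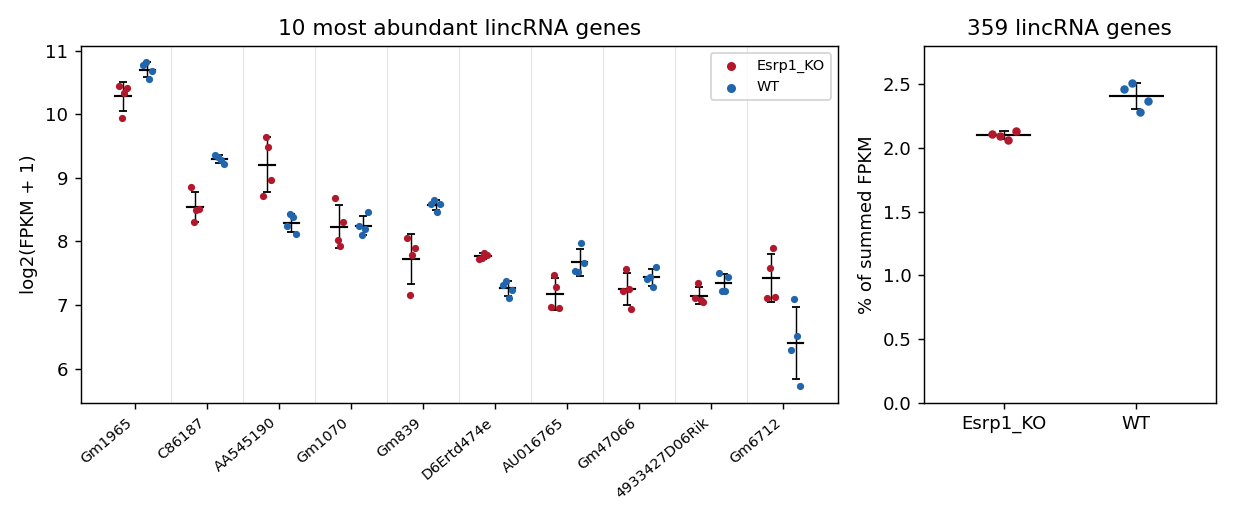
Left, log2(FPKM + 1) in each library of the 10 most abundant lincRNA genes, with Esrp1_KO left of WT for each gene. Right, the share of the summed FPKM that all 359 lincRNA genes hold per library, 2.06 to 2.14% in Esrp1_KO and 2.28 to 2.51% in WT. Points are libraries, and black lines the mean and SD.

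The largest falls left some lincRNAs nearly absent from Esrp1_KO and others at several FPKM. Gm45659, whose transcript is printed above, had 1.86, 1.35, 0.681 and 3.26 FPKM in Esrp1_KO libraries 1 to 4, against 55.6, 34.3, 33.3 and 48.2 FPKM in WT libraries 1 to 4. That was 11 to 52 reads per Esrp1_KO library and 484 to 827 reads per WT library. The Esrp1_KO mean was 0.0418 of the WT mean, and the log2 fold change of −4.02 ± 0.28 (SE, adjusted p = 1.36e-05, limma) was the lowest of all 8021 genes tested. Its next tested protein-coding gene lies 1020843 bases away.

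Gm26791 (chromosome 14, 118363732 to 118384768, plus strand) had 2.601, 4.25, 0.783 and 3.42 FPKM in Esrp1_KO libraries, against 25.7, 19.8, 37.6 and 16.7 FPKM in WT libraries. A530021J07Rik, on chromosome 7, had 0.678, 0.660, 0.206 and 0.477 FPKM in Esrp1_KO libraries, against 8.44, 5.37, 7.30 and 8.74 FPKM in WT libraries. Both separated the groups widely. Gm26791 fell by 2.83 ± 0.34 on the log2 scale (SE, adjusted p = 0.000245, limma), the fall of rank 8 among all genes tested. A530021J07Rik fell by 2.48 ± 0.17 (SE, adjusted p = 1.36e-05), the fall of rank 15.

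Gm47078 and 9330175E14Rik came closest to complete loss. Like A530021J07Rik above and Gm37381 below, they reached a mean of 1 FPKM in WT alone, so only a fall was open to them. Gm47078, on chromosome 10, was listed at 0 in 3 Esrp1_KO libraries and had 7 reads (0.109 FPKM) in Esrp1_KO replicate 3, against 2.36, 3.06, 2.50 and 2.54 FPKM in WT libraries. 9330175E14Rik, on chromosome 8, had 3, 2, 6 and 10 reads in Esrp1_KO libraries, against 510, 388, 477 and 407 reads in WT libraries. Gm47078 fell by 1.81 ± 0.12 (SE, adjusted p = 1.1e-05, limma) and 9330175E14Rik by 1.87 ± 0.12 (adjusted p = 1.09e-05), values that the 1 FPKM added before the logarithm keeps small. By mean FPKM, Esrp1_KO stood at 0.0105 of WT for Gm47078 and at 0.0112 of WT for 9330175E14Rik. Exons of Nlrc5, an innate immunity gene, overlap 1.31% of the exon bases of 9330175E14Rik, and Nlrc5 itself had a mean of 0 FPKM in Esrp1_KO and 0.00112 FPKM in WT.

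The other members of the 12 largest falls were Gm8579, Gm34728, 9830004L10Rik, Gm47923, Gm7644, Gm47847 and Gm37381, with log2 fold changes from −2.44 to −1.82. 9830004L10Rik had 7.85, 6.504, 7.01 and 6.67 FPKM in Esrp1_KO libraries, against 40.4, 28.0, 25.96 and 40.4 FPKM in WT libraries. Gm34728 had 1.42, 1.16, 0.927 and 0.683 FPKM in Esrp1_KO libraries, against 14.01, 16.9, 12.1 and 3.17 FPKM in WT libraries, where replicate 4 was low. Gm8579 shares 40.4% of its 50-base stretches with other genes, so part of its reads may belong elsewhere. Gm47923 and Gm47847 varied most between libraries, with SEs of 0.44 and 0.41.

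The largest rises were smaller than the largest falls. Gm47552, printed above, had 2.90, 4.70, 5.54 and 6.72 FPKM in Esrp1_KO libraries, against 0.296, 0, 0.370 and 0.630 FPKM in WT libraries. These were 36 to 73 reads per Esrp1_KO library and 0 to 7 reads per WT library, with no overlap. Its log2 fold change of 2.15 ± 0.23 (SE, adjusted p = 0.000111, limma) put it at rank 14 among all rises.

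Gm17751 (chromosome 1, 76489133 to 76502028, plus strand) rose at a high level. It had 186, 146, 172 and 246 FPKM in Esrp1_KO libraries, against 61.1, 56.2, 57.6 and 59.0 FPKM in WT libraries, a 3.21-fold difference of means. The WT libraries lay close together and all Esrp1_KO libraries far above them, with a log2 fold change of 1.64 ± 0.16 (SE, adjusted p = 6.93e-05, limma). The distance to the next tested protein-coding gene, Epha4, is 865157 bases.

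Gm34066 had 2.77, 2.14, 1.78 and 4.54 FPKM in Esrp1_KO libraries, against 0.414, 0.388, 0.431 and 0 FPKM in WT libraries. Gm13842 had 2.10, 1.04, 3.03 and 3.005 FPKM in Esrp1_KO libraries, against 0.475, 0.429, 0.254 and 0.216 FPKM in WT libraries. Both were near the limit of detection in WT. Gm34066, Gm13842, Gm47552 and Gm48656 reached a mean of 1 FPKM in Esrp1_KO alone, so only a rise was open to them. At higher levels, Gm10280 had 28.4, 22.2, 25.5 and 36.5 FPKM in Esrp1_KO libraries, against 13.8, 9.90, 13.4 and 12.01 FPKM in WT libraries. The remaining rises among the 12 largest were Gm4489, 2310015K22Rik, Gm13211, Gm48656, Gm28707, Gm15671 and Gm30853, between 1.16 and 1.43 on the log2 scale.

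**Figure D4:**
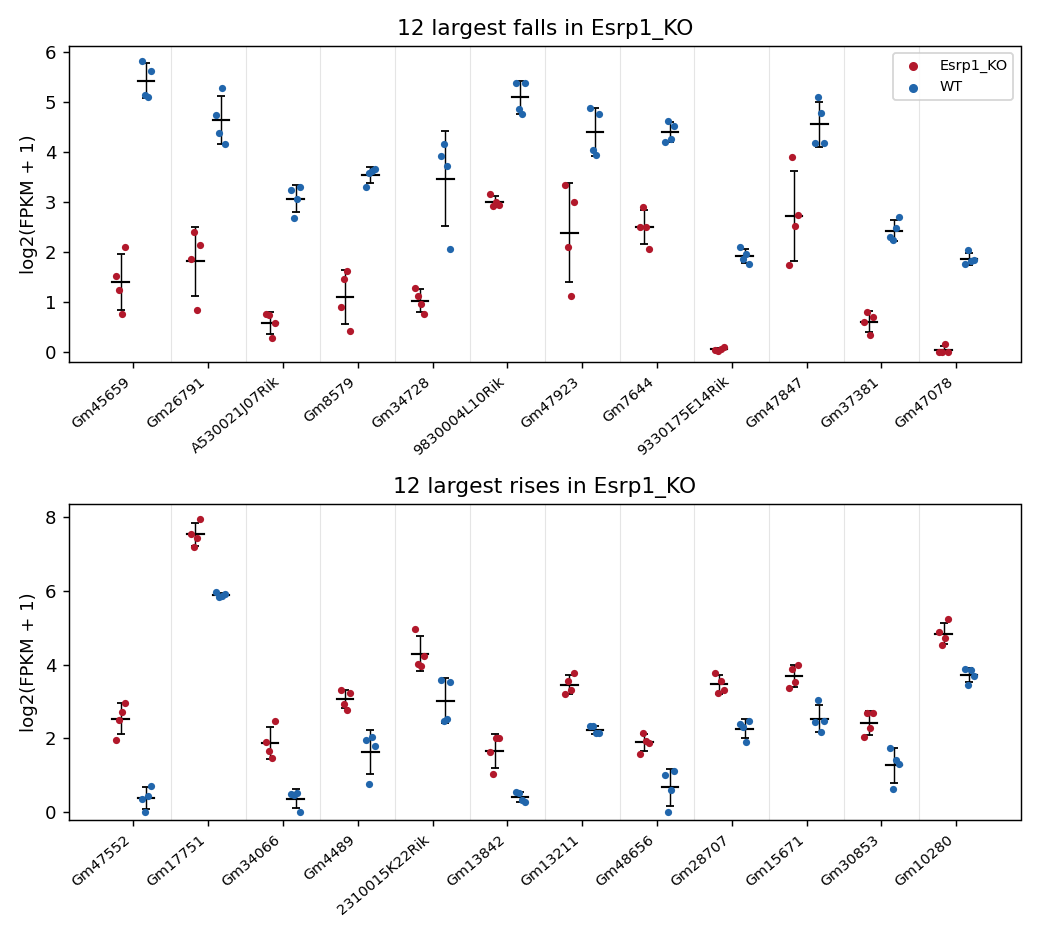
Log2(FPKM + 1) per library for the 12 largest falls (top) and the 12 largest rises (bottom) among lincRNA genes that passed and whose groups do not overlap. For each gene Esrp1_KO stands left of WT, points are libraries, and black lines the mean and SD. Gm47078 and 9330175E14Rik sit near 0 in Esrp1_KO.

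Several widely studied lincRNAs were nearly absent from the egg. Malat1, the abundant nuclear RNA of most somatic cells, had 0.262 FPKM on average in Esrp1_KO and 0.333 FPKM in WT. Meg3, an imprinted gene, had 0.0714 FPKM in Esrp1_KO and 0.191 FPKM in WT, and Xist and Neat1, which coat the inactive X chromosome and build paraspeckles, were below 0.01 FPKM in both. Among 20 snoRNA host genes 15 were listed and only Snhg10 was an expressed lincRNA gene. Snhg10 had 2.57, 0.987, 1.32 and 1.74 FPKM in Esrp1_KO libraries, against 1.36, 2.95, 2.42 and 1.18 FPKM in WT libraries, and the groups overlapped.

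Another 4 of the 359 genes hold an annotated small RNA gene, and of all 5 hosts Gm15668 fell by 1.79 (adjusted p = 8.95e-05, limma) and Smkr-ps rose by 0.95 (adjusted p = 0.00194). Gm26917 reached 22.7 FPKM in WT replicate 1 and at most 0.189 FPKM in any other library, and did not pass (adjusted p = 0.381). D6Ertd527e, described as the abundant oocyte RNA Sirena1, is typed protein-coding in M21 and so is not among the 359. It had 2729 FPKM on average in Esrp1_KO and 2699 FPKM in WT.

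The nuclear RNA exosome, which degrades many non-coding transcripts in other cells, was read from a list of 25 symbols. Some of these were older names of genes also on the list, and 18 genes were tested. In Esrp1_KO 4 (22.2%) were lower, where 23.1% of all genes tested were, and 1 (5.56%) was higher, where 13.9% were. The list was therefore not called more often than genes in general, and its median was −0.17, against −0.06 over all genes. The exosome subunit gene Exosc3 had 31.2, 36.9, 33.5 and 29.97 FPKM in Esrp1_KO libraries, against 62.3, 63.7, 66.6 and 56.6 FPKM in WT libraries. Exosc3 fell by 0.90 ± 0.12 (SE, adjusted p = 0.000322, limma). Mtrex, the helicase that feeds the exosome, had 5.65, 7.02, 6.46 and 6.31 FPKM in Esrp1_KO libraries, against 13.4, 12.4, 11.1 and 11.9 FPKM in WT libraries. Both separated the groups.

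Mtrex fell by 0.84 ± 0.12 (SE, adjusted p = 0.000494, limma). The nuclease gene Dis3 and the adaptor gene Zfc3h1 passed at 0.0216 and 0.0305. Dis3 lost its call without Esrp1_KO replicate 4 (0.0602) or WT replicate 1 (0.0521), and Zfc3h1 without Esrp1_KO replicate 1, 3 or 4 or WT replicate 2 or 3 (0.0558 to 0.0832). Tent4b, a poly(A) polymerase that tags RNA for the exosome, rose by 0.46 ± 0.15 (adjusted p = 0.0338, limma). Its call was lost without Esrp1_KO replicate 3 or 4 or WT replicate 1, 2 or 3 (0.0713 to 0.0925). It was also lost with all listed genes tested (0.0677), in replicates 1 and 4 alone (0.238) and in replicates 2 and 3 alone (0.0955). Whether these levels bear on the lincRNAs was not tested.

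The lincRNA genes were spread unevenly over the genome. The files list 14.2% of the 1189 M21 lincRNA genes of chromosomes 14 to 19, against 39.98% of the 4665 on the other chromosomes, and only 23 of the 359 genes lie on 14 to 19. None listed has an Ensembl number above 114961, and 831 of the 847 M21 lincRNA genes above it lie on those chromosomes, so the values here cover fewer lincRNA genes on chromosomes 14 to 19 than elsewhere.

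By chromosome, the share called was highest among chromosomes with at least 20 of the genes on chromosome 6, a comparison made after its values were seen. There 23 of 32 lincRNA genes (71.9%) were called, 5 higher and 18 lower, with a median of −0.57, while 37.3% of the 330 protein-coding genes of chromosome 6 were called, with a median of −0.07. On the X chromosome 1 of 12 lincRNA genes was called, Gm14635, which was higher, and 42.6% of 249 protein-coding genes were.

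Most of the genes stood alone. No protein-coding gene lay within 5 kb of 300 of the 359, and the median distance to the next was 52.1 kb, or 133 kb to the next one tested. The share called was 42.1% of the 38 within 5 kb of a tested protein-coding gene, 45.3% of 75 at 5 to 50 kb, 48.2% of 166 at 50 to 500 kb and 36.3% of 80 farther away. Across the 47 genes within 10 kb of a tested protein-coding gene, the fold changes of lincRNA and neighbour had a Pearson r of −0.0031, given as a description over genes from the same 8 libraries. Of the 11 such pairs in which both passed, 4 moved in the same direction and 7 in opposite directions.

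Of the genes with a divergent partner, that is a tested protein-coding gene starting within 5 kb on the other strand, there were 13, and in 3 pairs both genes passed. Smart-seq2 keeps no strand, so reads in the overlap of such pairs cannot be told apart. Mkln1os, which starts 38 bases inside Mkln1 on the other strand, had 1.28, 0.573, 0.794 and 0.985 FPKM in Esrp1_KO libraries, against 1.17, 1.63, 1.79 and 1.75 FPKM in WT libraries. Mkln1, which encodes muskelin of a ubiquitin ligase complex, had 71.1, 58.8, 49.2 and 73.6 FPKM in Esrp1_KO libraries, against 29.2, 29.4, 25.5 and 26.3 FPKM in WT libraries.

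Mkln1 rose by 1.15 ± 0.15 (SE, adjusted p = 0.000322, limma), and its groups lay apart. Mkln1os overlapped between groups and passed narrowly (−0.44 ± 0.15, adjusted p = 0.0450). It reached a mean of 1 FPKM in WT alone. Its call was lost with the replicate block (0.0709), with TMM scaling (0.102), with quantile normalization (0.185), with all listed genes tested (0.1003), with a pseudocount of 0.1 (0.0521), with voom (0.0914), in replicates 1 and 4 alone (0.489), in replicates 2 and 3 alone (0.0505) and when 1 of replicates 2, 3 and 4 of either group was left out (0.0747 to 0.105).

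Gm17399 starts 54 bases from Cmc1, a mitochondrial protein gene needed for cytochrome c oxidase assembly, and the pair moved in opposite directions. Gm17399 had 2.54, 2.72, 2.6 and 1.17 FPKM in Esrp1_KO libraries, against 0.931, 0.609, 1.23 and 1.40 FPKM in WT libraries. Cmc1 had 4.55, 8.14, 8.48 and 7.29 FPKM in Esrp1_KO libraries, against 18.4, 29.6, 23.0 and 17.9 FPKM in WT libraries. Cmc1 separated the groups, and Gm17399 did not because of Esrp1_KO replicate 4.

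Cmc1 fell by 1.52 ± 0.21 and Gm17399 rose by 0.66 ± 0.21 (SE, adjusted p = 0.000538 and 0.0309, limma). The call of Gm17399 was lost without Esrp1_KO replicate 1, 2 or 3 or WT replicate 1 or 2 (0.0653 to 0.0788). In the remaining pair, Gm47319 and the endonuclease domain gene Endod1, 4185 bases apart, both rose (0.72 ± 0.22 and 0.68 ± 0.23, adjusted p = 0.0293 and 0.0427, limma). Gm47319 lost its call when 1 of Esrp1_KO replicates 1 to 3 or WT replicates 1 to 3 was left out (0.0555 to 0.0694). Endod1 lost it when 1 of Esrp1_KO replicates 1, 3 and 4 or any WT replicate was left out (0.0535 to 0.0994).

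**Figure D5:**
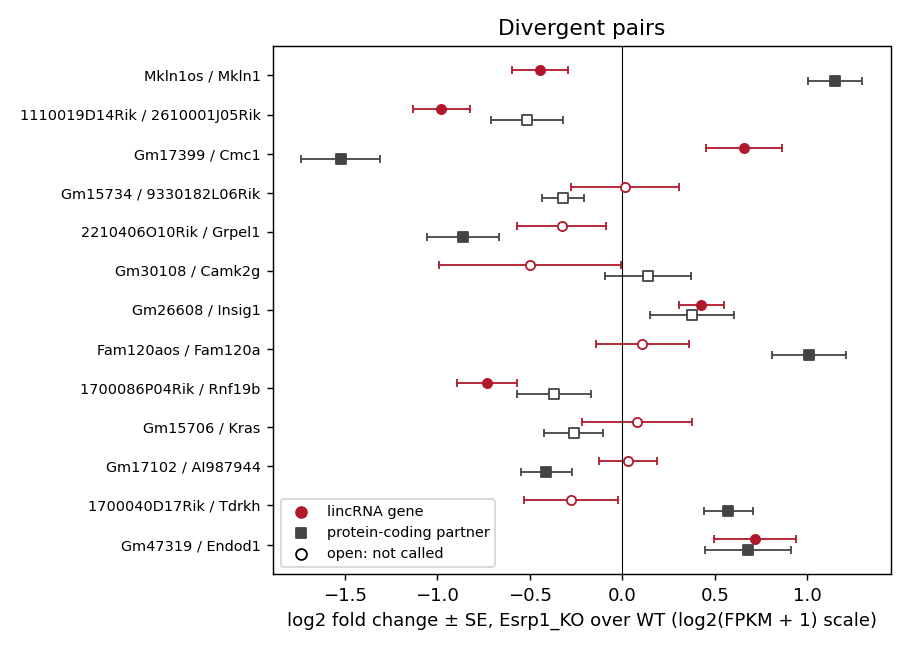
Log2 fold change (Esrp1_KO over WT) with its SE for the 13 lincRNA genes with a divergent protein-coding partner, and for the partner below each. Filled symbols passed an adjusted p of 0.05 and open ones did not. Mkln1os and Gm17399 lie across the zero line from their partners.

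Other close pairs, named after their values were seen, show both patterns. On chromosome 1, 9830004L10Rik, which fell, and 2310015K22Rik, which rose, lie 32971 bases apart on the same strand with Fam124b between them. 2310015K22Rik had 30.5, 15.1, 14.5 and 18.0 FPKM in Esrp1_KO libraries, against 10.9, 4.54, 4.81 and 10.5 FPKM in WT libraries. Fam124b fell by 0.76 ± 0.24 (SE, adjusted p = 0.0308, limma), a call lost without Esrp1_KO replicate 2 or 3 or WT replicate 1 or 4 (0.0715 to 0.0823).

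Gm29509 lies 803 bases from the splicing regulator gene Hnrnpf on the same strand. This lincRNA gene reached a mean of 1 FPKM in WT alone. It had 0.482, 0.500, 0.761 and 0.771 FPKM in Esrp1_KO libraries, against 3.54, 7.10, 2.77 and 5.17 FPKM in WT libraries, and fell by 1.74 ± 0.22 (SE, adjusted p = 0.000341, limma). Hnrnpf, which belongs to the proteins that bind G-rich RNA, had 170, 127, 124 and 142 FPKM in Esrp1_KO libraries, against 115, 88.1, 103 and 106 FPKM in WT libraries. It passed at 0.0321, but not without Esrp1_KO replicate 1 or 4 or WT replicate 2, 3 or 4 (0.0593 to 0.0824).

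Gm30198 and the Golgi protein gene Golga5, 1526 bases apart, both fell. Golga5 had 47.6, 35.4, 44.2 and 45.0 FPKM in Esrp1_KO libraries, against 109.7, 94.7, 103 and 116 FPKM in WT libraries. Gm30198 had 0.976, 2.19, 2.75 and 1.89 FPKM in Esrp1_KO libraries, against 3.73, 5.77, 2.85 and 4.07 FPKM in WT libraries. The adjusted p was 8.95e-05 for Golga5 and 0.0209 for Gm30198 (limma), and Gm30198 no longer passed without WT replicate 2 (0.0508).

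The structure of the genes was compared by call, as a description. The lincRNA genes had a median of 3 exon blocks and a longest transcript of 886 bases, against 11 blocks and 3400 bases for tested protein-coding genes. The longest transcript had a median of 811 bases in the genes that were higher, 1013 in those lower and 862 in those not called. The word GGTGG, described for ESRP proteins, occurred at a median of 0.59 per kb in the genes that were higher, 0.93 in those lower and 0.82 in those not called, and at 1.27 per kb in protein-coding genes. At least 1 copy was present in 52.4% of the 42 higher, 65.8% of the 117 lower and 61.5% of the 200 not called.

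RefSeq promoter windows starting within 1000 bases of the M21 start were found for 123 of the 359 genes. GGGCGG, the GC box core, was present in 20.3% of them and in 35.7% of all 32851 windows of the same length. TAATTA was present in 10.6% and 5.29%, TAATTG in 15.4% and 8.0%, and TATAAA in 16.3% and 13.6%. CANNTG, the E-box word that also covers CACGTG, was present in 84.6% and 72.3%, CACGTG itself in 7.32% and 7.15%, and CCAAT in 43.9% and 37.4%. All were searched on both strands. By call, TAATTA was held by 5 of 17 windows of genes that were higher, that of Gm17751 among them, 4 of 39 of those lower and 4 of 67 of those not called. TAATTG was held by 0 of 17, 7 of 39 and 12 of 67 in that order, CACGTG by 0 of 17, 5 of 39 and 4 of 67, and TATAAA by 1 of 17, 6 of 39 and 13 of 67. GGGCGG was held by 3 of 17, 6 of 39 and 16 of 67, CCAAT by 10 of 17, 15 of 39 and 29 of 67, and CANNTG by 13 of 17, 34 of 39 and 57 of 67.

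Sharing of sequence limits part of the list. More than 20% of the 50-base stretches recurred in other genes for 32 of the 359, and exons of another gene overlapped those of 34. Of the 302 with neither, 41 (13.6%) were higher and 100 (33.1%) lower, with a median of −0.32. Over all genes tested 13.9% were higher and 23.1% lower. Of the 57 with either, 1 (1.75%) was higher and 17 (29.8%) lower, also with a median of −0.32.

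The libraries of both genotypes also fell into replicates 1 and 4 on one side and 2 and 3 on the other. Replicates 1 and 4 both lay above replicates 2 and 3 in both groups for 21 lincRNA genes, and below them in both groups for 47, while 12 were split one way in one group and the other way in the other. Within replicates 1 and 4 alone 27 lincRNA genes were higher and 97 lower, where 676 of all 8021 genes tested were higher and 1350 lower. Within replicates 2 and 3 alone 33 lincRNA genes were higher and 66 lower, where 584 of all genes tested were higher and 905 lower. Of the 159 lincRNA calls, 118 were kept in all 8 fits that each left out 1 library, 30 of them higher and 88 lower. The share of all calls kept in this way was not worked out.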

How the data were processed

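Per the labels, polyadenylated RNA of MII oocytes was amplified by Smart-seq2 and sequenced on an Illumina instrument. The authors deposited FPKM per gene, per the file headers, on GRCm38, per the submitters' processing notes. Which aligner, counter and annotation release made them is not given in the sources here. The 24860 Ensembl IDs were typed by GENCODE M21.

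Multiplying FPKM by M21 exon length gave whole reads (within 0.02 reads) for 22629 genes in all libraries, and from these the read totals. Reads carry no molecule tags, so PCR copies are counted. FPKM is not a count, so log2(FPKM + 1) of the 8021 genes with a mean of 1 or more was tested with limma 3.58.1 (trend, R 4.3.3), Esrp1_KO minus WT, two-sided, with Benjamini-Hochberg adjustment over all 8021. Tables and figures used Python with pandas.

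In simulated data of the same size, with 8021 genes, limma called 62% of 50 genes changed 1.5-fold, all 50 changed 2-fold and 13 of 7821 unchanged genes.

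The deviations of same-numbered libraries from their group means correlated at 0.226 to 0.317 in all 4 pairs over genes, so the labels' replicate numbers served as a block in an alternative. Some libraries of unlike number correlated as much, with 0.402 for Esrp1_KO replicate 1 and WT replicate 4 and 0.252 for Esrp1_KO replicate 2 and WT replicate 3.

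The lincRNA genes and lists were chosen with earlier results of these data known. Named are the 10 most abundant, the 12 largest rises and falls that passed without overlap, list members, genes next to the level limit, divergent pairs that passed, Esrp1 and the exosome genes with the smallest p. Fam124b, Gm15767, Pthlh, Gm30198, Golga5, Gm29509, Hnrnpf, Gm14635, Gm15668, Smkr-ps, Tent4b and D6Ertd527e were named after their values were seen. A share of repeats in the exons was not computed.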

Additional observations from a re-analysis of the deposited data

Results flagged for a closer look

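In a group of 4 libraries, 1 library was set apart when its gap to the nearest other took up more of the whole range than Dixon's 95% critical value allows, which chance gives in about 1 of 20 groups. Of 136 groups of described genes checked, 10 had such a library, and no explanation was tested.

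Among Esrp1_KO libraries, Gm47078 had 0.109 FPKM in replicate 3 and was listed at 0 in the others. Esrp1_KO replicate 4 was low for Gm17399 (1.17 FPKM) and for Gm47319 (3.91 FPKM), the lincRNA genes of 2 divergent pairs. Esrp1_KO replicate 2 was high for Gm15767 (15.4 FPKM).

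Among WT libraries, Gm26917 had 22.7 FPKM in replicate 1, against at most 0.0720 FPKM in the other WT libraries. WT replicate 2 was high for Gm2516 (2.26 FPKM) and Gm47548 (3.87 FPKM), both next to the level limit, and low for Endod1 (1.02 FPKM). WT replicate 3 was low for Pthlh (2.72 FPKM), and WT replicate 4 was listed at 0 for Gm34066.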

How the results depend on the processing

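Of the 159 lincRNA genes that passed, none changed direction under any alternative. TMM scaling kept 138 of them, quantile normalization 141, a pseudocount of 0.1 157 and testing all listed genes 115. A voom fit on recovered reads, added after the data were seen, kept 127 of the 154 it held. The replicate block, with 48 lincRNA genes higher and 134 lower (all genes 1376 and 2030), kept 157 and ended the call of Mkln1os among the genes named. The median log2 fold change of the lincRNA genes was −0.19 with TMM scaling. Over all 2034 listed lincRNA genes it was −0.013, against −0.0092 over all 24860 genes listed. Of these lincRNA genes 1217 lay below 0.1 FPKM, where the 1 FPKM added before the logarithm keeps changes small. With a minimum of 5 FPKM, where fewer genes are tested, 22 lincRNA genes were higher and 44 lower (all genes 668 and 996). Replicates 1 and 4 alone left 27 lincRNA genes higher (all genes 676), and replicates 2 and 3 alone 66 lower (all genes 584 higher, 905 lower), from fewer libraries. Leaving out each replicate in turn gave 34 to 46 lincRNA genes higher and 99 to 121 lower, medians of −0.36 to −0.23, and 896 to 1112 of all genes higher and 1515 to 1816 lower.

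The sign turned in 6 named lincRNA genes that did not pass, and the cause was not tested. Gm1070 was at 0.13 with TMM scaling, 0.023 with quantile normalization, 0.14 in replicates 1 and 4, 0.093 with voom and −0.17 to 0.086 when replicates were left out in turn. Gm47066 was at 0.044 in replicates 2 and 3, and Snhg10 at 0.46 in replicates 1 and 4. Gm26917 was at 0.10 in replicates 2 and 3 and −1.46 to 0.060 with replicates left out. Gm3669 was at 0.061 with quantile normalization, 0.053 in replicates 1 and 4 and −0.18 to 0.0082 with replicates left out. Gm2516 was at −0.21 in replicates 2 and 3 and −0.066 to 0.31 with replicates left out.

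At the lowest level a gene rests on a few reads per library. In simulated data with the WT spread of all genes, 62% of 1.5-fold changes were called, so changes of that size or smaller can be missed. The lincRNA genes varied more between libraries than protein-coding genes (median 30.8% against 20.6% in Esrp1_KO, 26.9% against 15.8% in WT). The share that would be called among them was not simulated.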
